A study of Arabidopsis thaliana with 4 samples.

Results

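The HSP90 chaperones of Arabidopsis thaliana were followed here in seedlings that had been exposed to the vapour of a reactive leaf volatile. The 7 genes were chosen by locus: the cytosolic HSP90.1 (AT5G52640), HSP90.2 (AT5G56030), HSP90.3 (AT5G56010) and HSP90.4 (AT5G56000), the plastid HSP90.5 (AT2G04030, CR88), the mitochondrial HSP90.6 (AT3G07770) and HSP90.7 of the endoplasmic reticulum (ER) (AT4G24190, SHD). They are 7 of the 25426 loci with a matched probe, and all 7 were among the 18411 genes whose signal was well above background on each of the 4 arrays. All plants were wild-type Columbia-0. Every group was grown at 23 °C, its photoperiod was 14 h and its night 10 h, and a cold step at 4 °C lasted 3 days. The exposure, at 25 °C, was thus warmer than growth in every group, the control included. The plants stood for 30 min at 25 °C in the light in a closed box of 340 cm3 that held 3 µl of liquid. In the control group this was the solvent acetonitrile alone. In the other groups it was a 1 M solution in acetonitrile of (E)-2-pentenal, of 3-hepten-2-one or of crotonaldehyde, each at a nominal 10 µM in the labels. The volatiles are a ketone with a double bond next to its carbonyl group (3-hepten-2-one) and a pair of unsaturated straight-chain aldehydes, of which crotonaldehyde has the shorter chain. RNA from at least 6 pooled plants was hybridised to 1 one-colour Agilent array per group. With a single array per group there was no replicate check, no test was made and no p-value is given. Genes are called higher or lower by size alone, at 2-fold or more.

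HSP90 proteins are ATP-driven clamps that bind client proteins late in folding, among them kinases, hormone receptors and disease resistance proteins. They take over clients from HSP70 through the adaptor HOP, and further co-chaperones such as p23, AHA1, SGT1 and FKBP immunophilins set the pace and the choice of client. In Arabidopsis HSP90.1 is known as the heat-inducible cytosolic form and HSP90.2, HSP90.3 and HSP90.4 as largely constitutive forms, while plastids, mitochondria and the ER each have a form of their own.

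Each level was the log2 of the processed signal, the spot brightness after background subtraction, minus the log2 of the 75th percentile of its array, and a difference was 1 such level minus another. That percentile was 1667 on the control array, 1518 on the (E)-2-pentenal array, 1531 on the 3-hepten-2-one array and 1048 on the crotonaldehyde array, and 72.6% to 74.4% of spots were well above background. The scanner software's own error came to 0.20 on the log2 scale for a difference between arrays of an HSP90 gene, and repeat spots of 17 probes gave an SD of 0.079 to 0.111 for a difference from the control. Both cover measurement error only, not the spread between plants. The crotonaldehyde array lay on another slide and scan than the other 3, and on that array the treatment and the slide cannot be told apart. The 4 shoot markers were well above background on every array, with a summed signal of 888 to 1138 times the array's 75th percentile, and 1 of them, the light-harvesting gene LHCB3, was 3.84-fold lower than the control after crotonaldehyde. The 3 root markers summed to 18.0 times the percentile in the control, 8.53 after (E)-2-pentenal, 31.6 after 3-hepten-2-one and 0.104 after crotonaldehyde, where CASP1, which builds the Casparian strip, was not well above background and PYK10, the beta-glucosidase of root ER bodies, was lower than in the control by a log2 difference of -8.30. PYK10 made up nearly all of that sum, and the other root markers did not all follow it: after (E)-2-pentenal PYK10 was at -1.08, CASP1 at 0.19 and CASP2 at -0.57, and after 3-hepten-2-one they were at 0.82, -1.08 and -0.07. CASP2 was at -1.36 after crotonaldehyde. Of the 4 flower and seed markers, 2 or 3 were well above background on each array, with sums of 0.062 to 0.120 times the percentile. The 6 reference genes had median log2 differences from the control of -0.04, 0.14 and -0.05 after the volatiles in the order above, all within 2-fold. The root markers and LHCB3 were thus lower on the crotonaldehyde array, and their part in the crotonaldehyde values that follow was not tested. In such whole-plant RNA, fewer cells of a type and less RNA per cell cannot be told apart.

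The 7 genes were measured by 18 probes, of which all were well above background on all 4 arrays and none was saturated. For each gene the brightest probe gave the main value, and its other probes are given beside it. HSP90.2, HSP90.3 and HSP90.4 encode near-identical proteins, so a probe for one may also bind transcripts of another, and their separate values are uncertain. HSP90 levels are compared between arrays for 1 gene at a time, because brightness is not comparable between probes.

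Against acetonitrile, all 4 cytosolic genes were at least 2-fold higher after each volatile, and HSP90.7 was within 2-fold after each. The plastid and mitochondrial genes were below 2-fold after (E)-2-pentenal and above it after the other volatiles. The number of HSP90 genes at least 2-fold higher was therefore 4 of 7 after (E)-2-pentenal, 6 of 7 after 3-hepten-2-one and 6 of 7 after crotonaldehyde. The shares of all compared genes that passed the same rule were 4.50%, 6.12% and 8.89%. None of the 7 was at least 2-fold lower, against 1.87%, 4.57% and 15.2% of all genes. At 1.5-fold, 6 of 7 HSP90 genes were higher after each volatile, beside 7.85%, 11.6% and 18.9% of all genes. At 4-fold, 4, 4 and 5 of 7 were higher, beside 1.69%, 2.06% and 2.22%. The median log2 difference of the HSP90 genes was 2.11, 2.22 and 2.88, beside -0.06, -0.07 and 0.01 over all genes. The 3 comparisons share the acetonitrile array, so a deviation of that array would enter all of them.

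**Figure D1:**
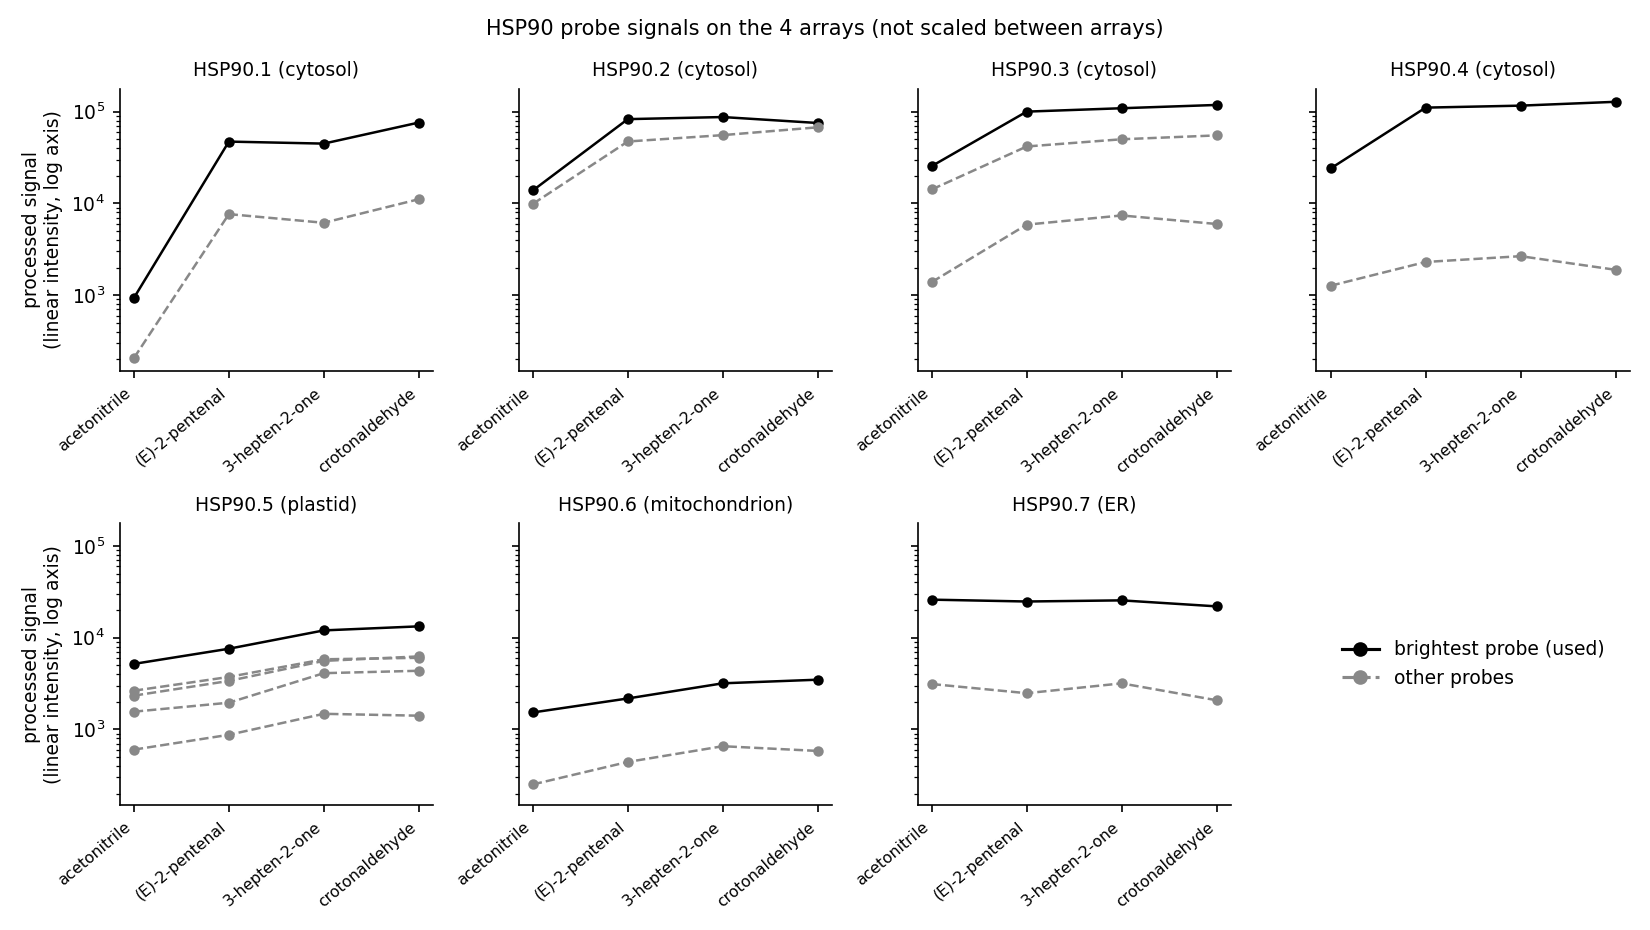
Processed signal of every HSP90 probe on the 4 arrays, not scaled between arrays and on a log axis, with 1 panel per gene, a solid line for the brightest probe, dashed lines for the others and 1 array per group. The signal of HSP90.1 goes from 934 in acetonitrile to between 44899 and 76147 after the volatiles, while that of HSP90.7 stays between 21957 and 25984; signals are to be read along a probe, not between probes.

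HSP90.1, the heat-inducible cytosolic form, had the widest span. Its signal was 934 in acetonitrile, 47234 after (E)-2-pentenal, 44899 after 3-hepten-2-one and 76147 after crotonaldehyde, which gave scaled log2 levels of -0.84, 4.96, 4.87 and 6.18. The control was thus far below all 3 treated arrays, those of (E)-2-pentenal and 3-hepten-2-one lay within the software's error of each other, and the crotonaldehyde array was highest. The log2 differences from the control were 5.80, 5.71 and 7.02, that is 55.5-fold, 52.4-fold and 129.7-fold. HSP90.1 ranked 18th, 19th and 13th of the 18411 genes by these differences. Its second probe gave 5.35, 5.02 and 6.42, a smaller difference for each volatile in the same order. There 3-hepten-2-one minus (E)-2-pentenal was -0.33.

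HSP90.2, a cytosolic form also known as HSP81-2, had signals of 13856, 82997, 87473 and 75345 in acetonitrile and after (E)-2-pentenal, 3-hepten-2-one and then crotonaldehyde. The last signal came from the dimmer array, and the scaled log2 levels were 3.06, 5.77, 5.84 and 6.17. All 3 treated arrays were above the control, by 2.72, 2.78 and 3.11 on the log2 scale (6.58-fold, 6.87-fold and 8.65-fold). On this brightest probe, neither the step from (E)-2-pentenal to 3-hepten-2-one nor that from 3-hepten-2-one to crotonaldehyde exceeded 2 software errors. The second probe of HSP90.2 gave 2.39, 2.61 and 3.44, with a larger last step of 0.83.

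HSP90.3, or HSP81-3, had signals of 25545, 100228, 109118 and 118497 in the same order of arrays. Its scaled log2 levels were 3.94, 6.05, 6.16 and 6.82, lowest in the control and highest after crotonaldehyde, with no separation of the other treated arrays. The log2 differences were 2.11, 2.22 and 2.88, or 4.31-fold, 4.65-fold and 7.38-fold. Over its 3 probes they ranged from 1.69 to 2.22 after (E)-2-pentenal, from 1.94 to 2.54 after 3-hepten-2-one and from 2.63 to 2.88 after crotonaldehyde, so every probe passed 2-fold.

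HSP90.4, the remaining cytosolic form, was the 1 HSP90 gene whose probes fell on both sides of the 2-fold rule against the control. Its brighter probe had signals of 24086, 110795, 116444 and 128207, giving log2 differences of 2.34, 2.40 and 3.08 (5.05-fold, 5.26-fold and 8.47-fold). Its dimmer probe had signals of 1268, 2301, 2662 and 1891, giving 0.99, 1.19 and 1.25. The treated arrays were higher on both probes, but by 1.99-fold, 2.29-fold and 2.37-fold on the dimmer one. Read from the dimmer probe, HSP90.4 missed the 2-fold rule after (E)-2-pentenal and 3 of the 7 HSP90 genes passed it there.

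**Figure D2:**
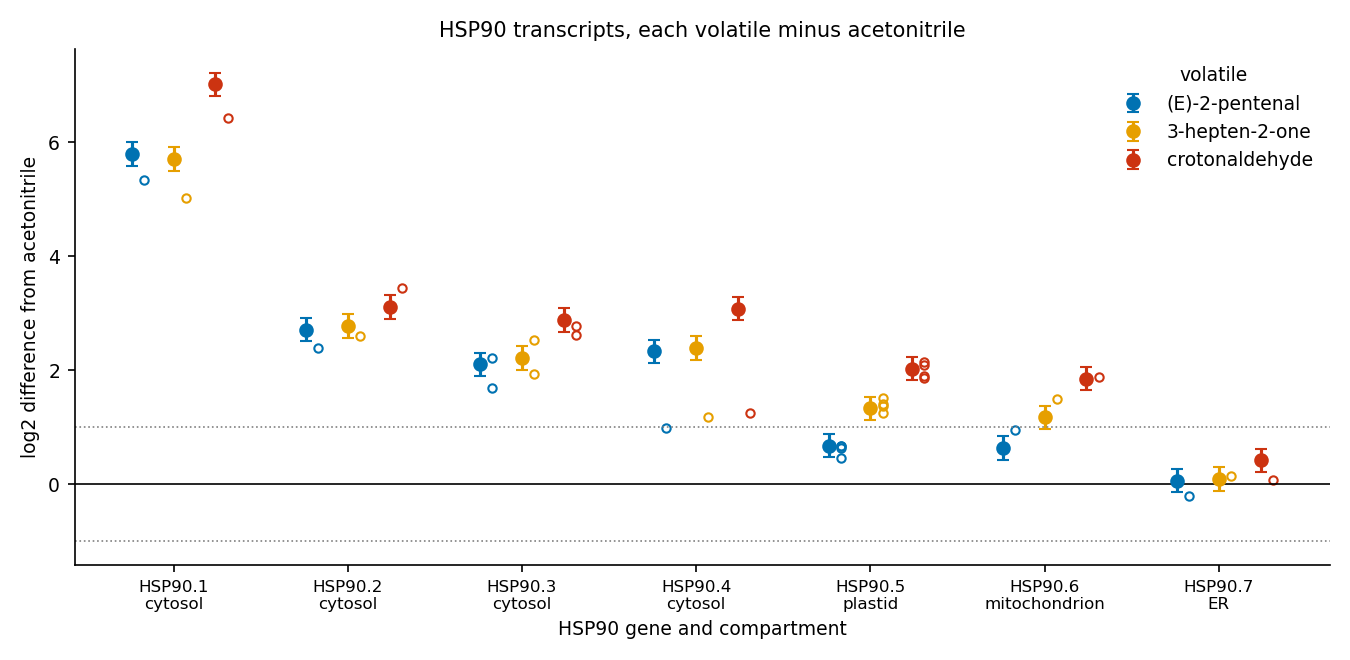
Log2 difference from acetonitrile for each HSP90 gene after each volatile, with open points for the gene's other probes, bars of 1 scanner software error (0.20) and dotted lines at the 2-fold rule. The cytosolic genes lie at 2.11 or above on their brightest probes, the dimmer HSP90.4 probe lies at 0.99 to 1.25, and HSP90.5 and HSP90.6 spread by volatile.

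HSP90.4, HSP90.3 and HSP90.2 lie in this order in a cluster on chromosome 5, with 1 other measured gene between the last pair. That gene, AT5G56020, had signals of 421 in acetonitrile, 363 after (E)-2-pentenal, 301 after 3-hepten-2-one and 146 after crotonaldehyde. Its log2 differences were -0.08, -0.36 and -0.85, so it was within 2-fold of the control on every array while the HSP90 genes on both sides were 4.31-fold higher or more by their brightest probes. The flanking CBL2 (AT5G55990), a calcium sensor of the calcineurin B-like family, was at 0.08, -0.89 and 0.34, and AT5G56040 on the other flank at -0.58, -0.88 and -0.74. None of the 3 named neighbours of this cluster was thus at least 2-fold higher. Neighbours of HSP90.1, which lies elsewhere, were not analysed here.

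HSP90.5, the plastid form that acts in chloroplast protein import and development, differed in graded steps. Its signals were 5181 in acetonitrile, 7580 after (E)-2-pentenal, 12010 after 3-hepten-2-one and 13292 after crotonaldehyde, and its scaled log2 levels were 1.64, 2.32, 2.97 and 3.67. Each step in this order exceeded 2 software errors. The log2 differences from the control were 0.68, 1.34 and 2.03, or 1.61-fold, 2.52-fold and 4.08-fold. The 5 probes of HSP90.5 agreed closely, at 0.46 to 0.68 after (E)-2-pentenal, 1.26 to 1.52 after 3-hepten-2-one and 1.86 to 2.15 after crotonaldehyde, and these ranges did not overlap.

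HSP90.6, the mitochondrial form, followed the same order of arrays. Its signals were 1531, 2175, 3182 and 3484, and its scaled log2 levels were -0.12, 0.52, 1.06 and 1.73, again with each step beyond 2 software errors. The log2 differences were 0.64, 1.18 and 1.86, or 1.56-fold, 2.26-fold and 3.62-fold. The second probe of HSP90.6 gave 0.95, 1.51 and 1.88. The order of arrays was the same on both probes, and the last step, from 3-hepten-2-one to crotonaldehyde, was 0.38 on the second.

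HSP90.7 or SHEPHERD, the ER form known for folding the CLAVATA proteins of the shoot meristem and related to animal GRP94, stayed within 2-fold of the control. Its signals were 25984, 24805, 25521 and 21957, and its scaled log2 levels of 3.96, 4.03, 4.06 and 4.39 had no step between neighbouring arrays beyond 2 software errors. The crotonaldehyde array lay beyond 2 software errors of the control on this probe. The log2 differences were 0.07, 0.10 and 0.43, that is 1.05-fold, 1.07-fold and 1.34-fold, and on the second probe -0.20, 0.15 and 0.08. Under other scalings and on its second probe the value ranged from -0.20 to 0.13 after (E)-2-pentenal and from -0.12 to 0.15 after 3-hepten-2-one. After crotonaldehyde it ranged from 0.08 to 0.75. Its sign varied after (E)-2-pentenal and 3-hepten-2-one. After crotonaldehyde it stayed positive, but 0.08 on the second probe and 0.17 under quantile normalization were below 1 software error of 0.20. Its direction was thus not settled after any volatile.

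**Figure D3:**
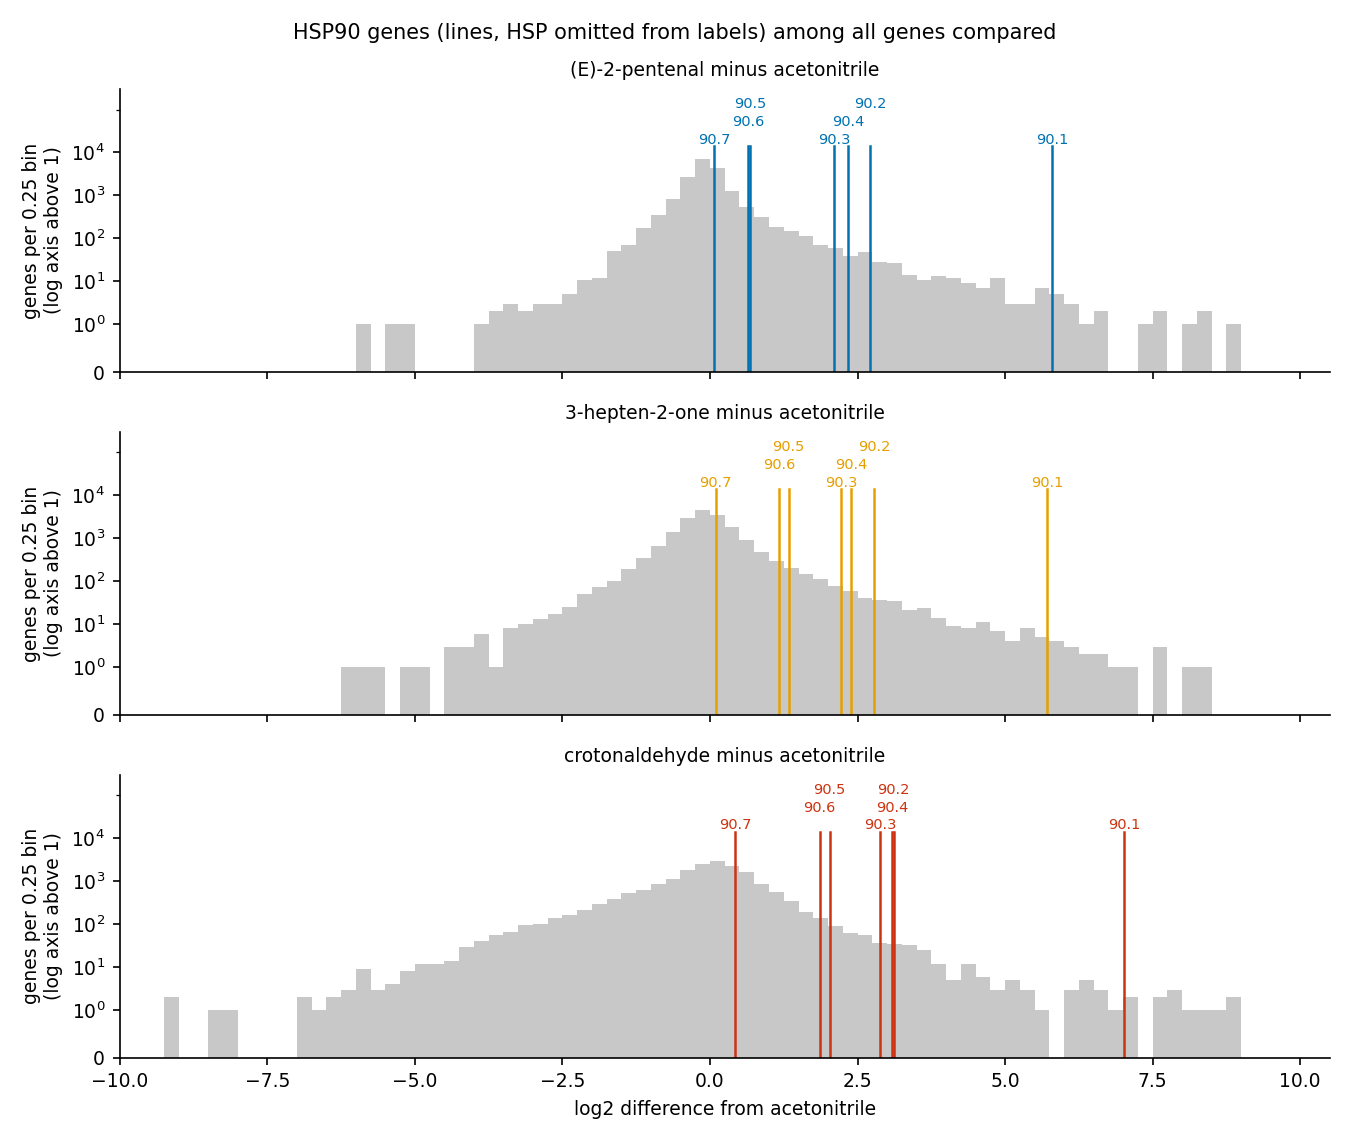
Number of genes by log2 difference from acetonitrile for the 18411 genes well above background, 1 panel per volatile with bins of 0.25 and a count axis that is logarithmic above 1, with vertical lines at the HSP90 genes. HSP90.1 lies in the far right tail at 5.80, 5.71 and 7.02, and HSP90.7 lies in the body of the distribution at 0.07, 0.10 and 0.43.

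By compartment, the cytosolic genes had median log2 differences from the control of 2.53, 2.59 and 3.10, with the volatiles in the same order as before. The 3 organellar genes had medians of 0.64, 1.18 and 1.86. By rank, HSP90.2, HSP90.3 and HSP90.4 lay between 145th and 313th of the 18411 genes over the 3 comparisons. HSP90.5 ranked 1256th, 745th and 400th and HSP90.6 ranked 1330th, 891st and 480th, while HSP90.7 ranked between 4716th and 6331st.

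The 3 volatiles were then compared with each other at the same nominal dose and time, in 3 pairs and without a test. The ketone 3-hepten-2-one and the aldehyde (E)-2-pentenal, whose arrays shared a slide, gave cytosolic levels close to each other: 3-hepten-2-one minus (E)-2-pentenal was -0.09 for HSP90.1, 0.06 for HSP90.2, 0.11 for HSP90.3 and 0.06 for HSP90.4. The plastid and mitochondrial genes were higher after 3-hepten-2-one, HSP90.5 by 0.65 and HSP90.6 by 0.54, and HSP90.7 differed by 0.03. Over the alternative settings the values of HSP90.2, HSP90.3, HSP90.4 and HSP90.7 took both signs. HSP90.1 stayed between -0.33 and -0.09, HSP90.5 between 0.59 and 0.76 and HSP90.6 between 0.48 and 0.56. Over its 5 probes HSP90.5 lay between 0.63 and 1.06, so 1 of them passed 2-fold. No HSP90 gene passed 2-fold in this pair, where 3.86% of all genes did so with 3-hepten-2-one higher and 4.21% with it lower. At 1.5-fold, 1 of 7 passed, HSP90.5, beside 9.65% of all genes. By probe, the 9 cytosolic probes lay between -0.33 and 0.32 and the 9 organellar probes between 0.03 and 1.06, so these groups overlapped. Among the organellar probes, the 7 of HSP90.5 and HSP90.6 lay between 0.54 and 1.06 and those of HSP90.7 at 0.03 and 0.34. Probes of a gene share its transcript and are not replicates of the treatment.

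Crotonaldehyde and (E)-2-pentenal, the aldehydes that differ in chain length, differed by 2-fold or more at 3 HSP90 genes. Crotonaldehyde minus (E)-2-pentenal was 1.22 for HSP90.1, 1.34 for HSP90.5 and 1.21 for HSP90.6. It was 0.40 for HSP90.2, 0.78 for HSP90.3, 0.75 for HSP90.4 and 0.36 for HSP90.7. The calls of HSP90.6 and HSP90.2 depended on the probe: the second probe of HSP90.6 was at 0.93, below 2-fold, and that of HSP90.2 at 1.05, above it. All 7 values were positive, and 3 of 7 at least 2-fold higher compares with 5.56% of all genes, while 13.6% of all genes were lower by as much. At 1.5-fold 5 of 7 passed by their brightest probes, beside 16.0% of all genes, and at 4-fold none did, beside 0.701%. Scaled to the array median in place of the 75th percentile, 5 of 7 passed.

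Crotonaldehyde minus 3-hepten-2-one was 1.31 for HSP90.1, the 1 HSP90 gene past 2-fold, beside 9.72% of all genes higher and 15.8% lower. At 1.5-fold 5 of 7 passed by their brightest probes, beside 21.1% of all genes, and at 4-fold none did, beside 2.00%. The other cytosolic genes were at 0.33 (HSP90.2), 0.67 (HSP90.3) and 0.69 (HSP90.4). HSP90.5 was at 0.69, HSP90.6 at 0.68 and HSP90.7 at 0.33, with -0.06 on the second probe of HSP90.7. Over their probes, HSP90.2 ranged from 0.33 to 0.83, HSP90.3 from 0.24 to 0.69 and HSP90.4 from 0.05 to 0.69. HSP90.5 ranged from 0.48 to 0.71 and HSP90.6 from 0.38 to 0.68, so the 1.5-fold count depended on the probe. In both pairs with crotonaldehyde the slide differed as well as the compound, and PYK10, CASP1 and CASP2 were each lowest on the crotonaldehyde array.

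The genes most like each HSP90 gene were taken by the Euclidean distance between their 4 log2 levels after each gene was centred on its mean, over the 4 arrays and among the other 18410 genes. Nearest to HSP90.1 was HSP70T-2 (AT2G32120), a truncated HSP70, at a distance of 0.098 and with log2 differences of 5.91, 5.70 and 7.07. It was followed by AT2G20560 at 0.40, AT5G25450 at 0.49, the cytosolic HSP70 gene AT3G12580 at 0.49 and Fes1A, a nucleotide exchange factor of HSP70, at 0.55. Only 4 genes lay within a distance of 0.5 of HSP90.1, and no other HSP90 gene came nearer to it than HSP90.2 at 2.96. These distances used the brightest probe of HSP90.1, with log2 differences of 5.80, 5.71 and 7.02. Its second probe gave 5.35, 5.02 and 6.42, so the order of the near genes and their count may depend on the probe.

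HSP90.3 and HSP90.4 were each the second nearest gene of the other, at 0.18, and AT3G14200 came first for both. These distances used the brightest probes, which may bind transcripts of both HSP90 genes. The dimmer HSP90.4 probe gave 0.99, 1.19 and 1.25 against acetonitrile, beside 2.11, 2.22 and 2.88 for HSP90.3. The third nearest was AGO2, a small-RNA effector, for HSP90.3 and mtHSC70-2, a mitochondrial HSP70, for HSP90.4. HSP90.2 had AT1G55530, the heat shock factor HSFB2A and the stress factor WRKY40 as its nearest genes. HSP90.5 and HSP90.6 lay 0.15 apart by their brightest probes, with GFAT and AT1G21000 also among the 3 nearest of both. HSP90.6 lay 0.148 from HSP90.5, 0.149 from AT1G21000 and 0.154 from GFAT. With a software error of 0.20 for a difference, the order of these 3 was not resolved. The second probe of HSP90.6, not used here, gave 0.95, 1.51 and 1.88 against acetonitrile, beside 0.64, 1.18 and 1.86 on the brightest. Within a distance of 0.5 there were 31 genes for HSP90.2, 26 for HSP90.3, 34 for HSP90.4, 60 for HSP90.5 and 111 for HSP90.6. HSP90.7 had 7097 such genes, since its 4 levels differed little.

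Of the 19 listed co-chaperones of HSP90, all well above background, 6 were at least 2-fold higher after each volatile, beside 4.50%, 6.12% and 8.89% of all genes. The list's median log2 difference for the 3 volatiles was 0.02, 0.16 and 0.40, and 13, 12 and 13 members lay within 2-fold. HOP3, 1 of 3 HOP adaptors between HSP70 and HSP90, had signals of 364 in acetonitrile, 30900 after (E)-2-pentenal, 31386 after 3-hepten-2-one and 52758 after crotonaldehyde. Its log2 differences of 6.54, 6.55 and 7.85 also placed (E)-2-pentenal and 3-hepten-2-one together and the crotonaldehyde array highest. HOP2 was at 1.07, 1.29 and 1.71 and HOP1 at -0.11, -0.09 and -0.12. The other probe of HOP2 was at 0.99 after (E)-2-pentenal, below 2-fold, so the count of 6 depended on the probe there.

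The immunophilins ROF1 and ROF2, FKBP-type partners of HSP90 in heat responses, stood at 2.67, 2.99 and 3.62 and at 5.62, 5.80 and 6.38. The AHA1-like gene, whose yeast relative activates the HSP90 ATPase, was at 2.03, 1.99 and 2.53. SGT1A, a co-chaperone in immune receptor folding, was at 2.58, 2.27 and 2.40, whereas its paralogue SGT1B was at -0.02, -0.24 and 0.33. The p23 protein P23-1 was at -0.08, 0.01 and -0.03. GIGANTEA (GI), a clock protein that acts with HSP90 on the photoreceptor ZEITLUPE, was the 1 listed co-chaperone at least 2-fold lower, at -1.68 after 3-hepten-2-one. That count of 1 in 19 is close to the share of all genes at least 2-fold lower after 3-hepten-2-one, 4.57%. Members of 1 co-chaperone family thus differed, with HOP3 and SGT1A high and HOP1 and SGT1B within 2-fold.

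**Figure D4:**
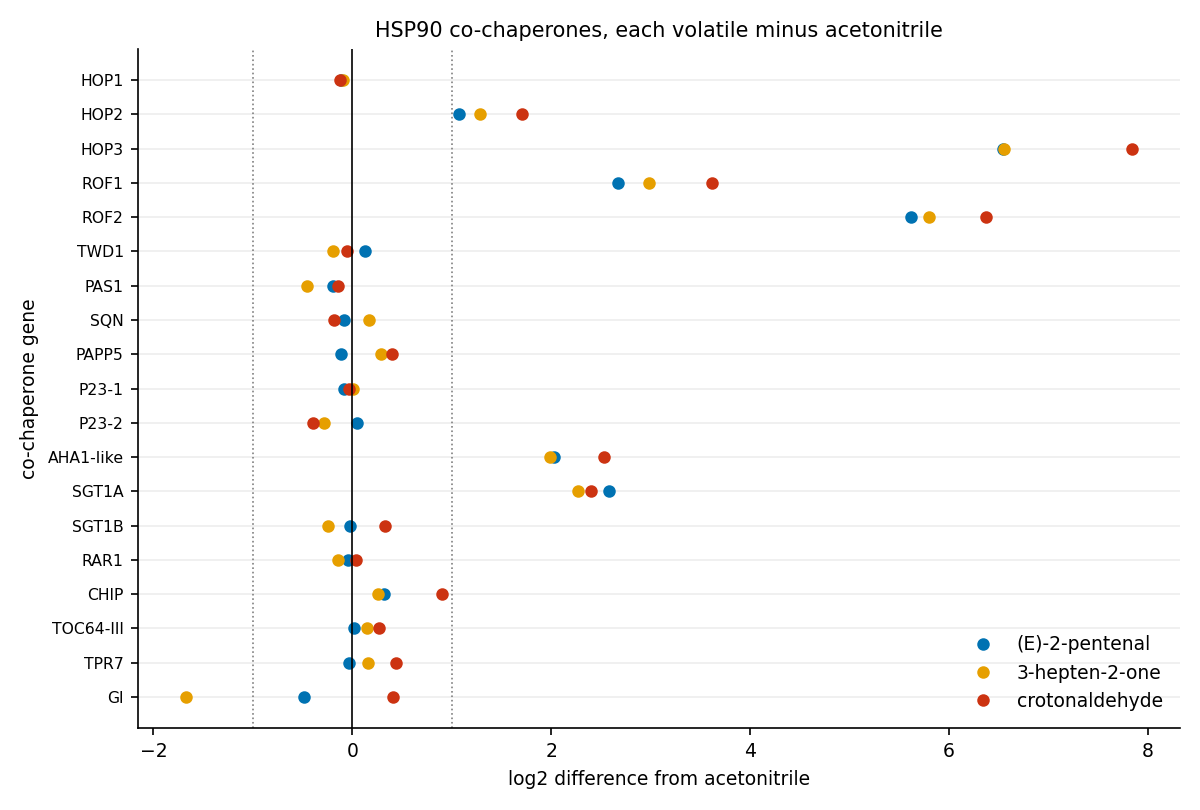
Log2 difference from acetonitrile for the 19 listed HSP90 co-chaperones after each volatile, with dotted lines at the 2-fold rule in both directions and 1 array per group. HOP3 and ROF2 lie above 5 after every volatile, and most other members lie within 2-fold of the control.

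Of 7 listed clients of HSP90, 1 was at least 2-fold higher after (E)-2-pentenal, the resistance gene RPS2 at 1.38. None passed 2-fold in either direction after 3-hepten-2-one. After crotonaldehyde the resistance gene RPM1 was at 1.05 and the auxin receptor TIR1 at -2.45, so 1 was higher and 1 lower. These calls used the brightest probes, on which BES1 was at -0.75, -0.49 and -0.54. Over its 3 probes BES1 went as low as -1.12, -0.64 and -1.29, so its call after (E)-2-pentenal and crotonaldehyde depended on the probe. The list's medians were -0.12, 0.05 and 0.15. By the brightest probes, counts of 0 or 1 in 7 are close to the shares over all genes, 4.50%, 6.12% and 8.89% higher and, after crotonaldehyde, 15.2% lower.

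Set beside the partner chaperones of each compartment, the cytosolic HSP90 genes stood with the cytosolic HSP70 genes, of which 4 of 5 were at least 2-fold higher after each volatile, beside 4.50%, 6.12% and 8.89% of all genes, with medians of 3.00, 2.49 and 3.45. The exception, by the brightest probe, was the abundant constitutive HSC70-1, at 0.55, 0.57 and 0.83. Over its 8 probes it ranged from 0.33 to 1.46, from 0.55 to 1.67 and from 0.83 to 1.74, so its call depended on the probe. In plastids, where HSP90.5 was at 0.68, 1.34 and 2.03, the HSP70 gene cpHSC70-2 was at 0.89, 1.44 and 1.99 and the disaggregase CLPB3 at 1.07, 1.16 and 1.95. The other 4 of 6 plastid partners, among them the import motor HSP93-V, were within 2-fold after each volatile. The plastid count was thus 1, 2 and 2 of 6, beside the same shares of all genes.

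Of 7 mitochondrial partners, 3 passed 2-fold upward after (E)-2-pentenal, 3 after 3-hepten-2-one and 5 after crotonaldehyde, beside 4.50%, 6.12% and 8.89% of all genes. These included mtHSC70-2 at 2.34, 2.20 and 3.22, the chaperonin HSP60-3B at 1.14, 1.58 and 2.44 and the disaggregase CLPB4 at 3.04, 3.00 and 3.79. HSP60-3B had the graded order of HSP90.6, and mtHSC70-2 and CLPB4 had (E)-2-pentenal and 3-hepten-2-one within 0.20 of each other.

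In the ER, 10 of 11 partners could be compared. By the brightest probes none passed 2-fold upward after (E)-2-pentenal or 3-hepten-2-one, and after crotonaldehyde 3 did, beside 4.50%, 6.12% and 8.89% of all genes. After crotonaldehyde CNX1 was at 0.94 on its brightest probe and at 1.48 on its other probe, so that count depended on the probe. HSP90.7 was at 0.43 after crotonaldehyde. The HSP70-type BIP1 and BIP2 were at 0.49, 0.49 and 1.35 and at 0.51, 0.57 and 1.25, and the co-chaperone P58IPK was at 0.00, -1.43 and 1.21. BIP3, the stress-inducible BiP, was not well above background in acetonitrile and was at least 3.96-fold higher after (E)-2-pentenal, at least 1.30-fold after 3-hepten-2-one and at least 5.80-fold after crotonaldehyde. These bounds set each treated signal against the dimmest control signal that was called well above background. HSP90.7 was thus within 2-fold on arrays where BIP1 and BIP2 were above it after crotonaldehyde.

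**Figure D5:**
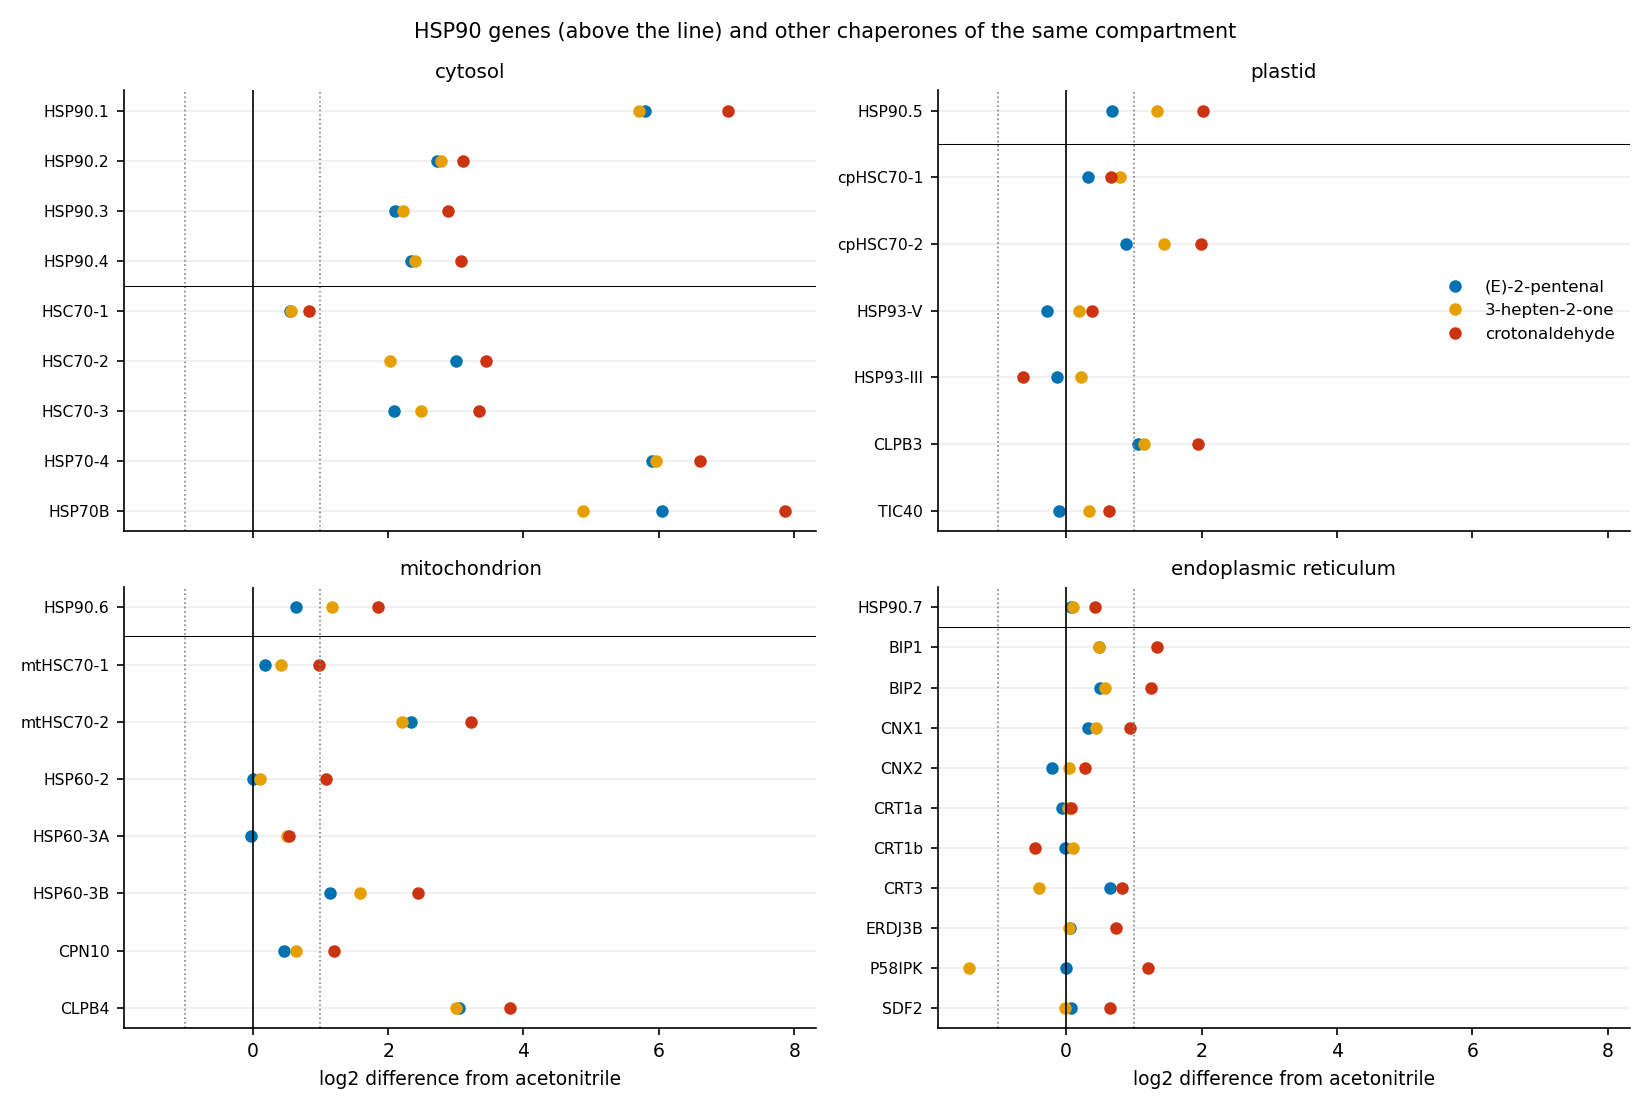
Log2 difference from acetonitrile of the HSP90 genes and their listed partner chaperones in cytosol, plastid, mitochondrion and ER, by volatile, with 1 array per group and dotted lines at the 2-fold rule. Points are the brightest probe of each gene. Cytosolic genes other than HSC70-1 lie above the rule after every volatile. In the ER the values above it are those of BIP1, BIP2 and P58IPK after crotonaldehyde. BIP3 is left out because its control signal was not well above background.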

How the data were processed

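Spot intensity in the deposited scanner files is linear, already background-subtracted within each array and not scaled between arrays, per the file headers. The headers name Agilent Feature Extraction 10.10.1.1 and the submitters' processing notes version 9.1. Other columns of the deposited files are flags, coded 0 or 1, for well above background, saturated and outlier spots. A deposited table of the authors' processed intensity equals the processed signal times 1 constant per array (1.3801 for the control and, for the volatiles in the order of the report, 1.4484, 1.3835 and 1.9797), with medians of 388.8, 356.7, 352.3 and 280.5. It is linear and not centred, and the sources used here do not give the basis of its constants.

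Of 43803 non-control spots per array, 34476 matched 1 locus through transcript accessions in a RefSeq gene table of TAIR10.1, used for names and gene order only. Control and outlier spots were left out, spots of a probe averaged, the 75th percentile subtracted on the log2 scale, and the probe with the highest mean signal taken per gene. The number of arrays limits the precision. Arrays were grouped by title. Nearest genes were named by rule, the 5 nearest to HSP90.1 and the 3 nearest to each other member. List genes past 2-fold could be named with up to 4 others per list. The HSP90 loci, lists and rules were chosen with earlier results of these data known.

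Alternatives were normexp background correction (offset 50, on the median spot signal and median background), quantile normalization, median scaling, cyclic loess, the authors' table, no filter on dim probes, the mean over probes, and rules of 1.5-fold and 4-fold. The dimmest probe per gene was added after seeing the data. Python 3.11.15, R 4.3.3 and limma 3.58.1 were used, and the scripts were checked on simulated data.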

Additional observations from a re-analysis of the deposited data

Results flagged for a closer look

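P58IPK, a co-chaperone of the ER that works with BiP, was at -1.43 on the log2 scale against acetonitrile after 3-hepten-2-one and at 1.21 after crotonaldehyde. It was chosen because it was at least 2-fold lower after 1 volatile and at least 2-fold higher after another. With 1 array per group this difference was not tested, and the crotonaldehyde array lay on another slide.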

How the results depend on the processing

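The counts of HSP90 genes at least 2-fold higher than acetonitrile were the same under normexp, quantile normalization, median scaling, cyclic loess, the authors' table and the mean over probes. Leaving out the filter could not change them, since all HSP90 probes passed it. With the dimmest probe 3 passed after (E)-2-pentenal. Between volatiles, 3-hepten-2-one minus (E)-2-pentenal had 0 of 7 past 2-fold and 1 under a 1.5-fold rule. Crotonaldehyde minus (E)-2-pentenal had 3 (3 also with the dimmest probe, but with HSP90.2 in place of HSP90.6), against 5 scaled to the median, 5 under the 1.5-fold rule and 0 under a 4-fold rule. Crotonaldehyde minus 3-hepten-2-one had 1, against 5 under the 1.5-fold rule and 0 under the 4-fold rule. Of 168 single values against acetonitrile under alternatives, 137 moved by less than 1 software error of the difference, 31 moved by more and none of a called value reversed. Of the 137, 21 came from leaving out the filter, which could not move them. Another 21 came from the authors' table, which differs only by 1 constant per array. The farthest shift, 1.84, was HSP90.4 after crotonaldehyde with its dimmest probe.

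Scaling to the median raised every crotonaldehyde difference from the control by 0.32 on the log2 scale, the median of all genes going from 0.01 to 0.33. Genes at least 2-fold higher and lower after crotonaldehyde numbered 1637 and 2800, against 2868 and 2014 scaled to the median. With the authors' table they were 1258 and 3274 and the median of all genes was -0.14. No paired analysis was possible because each group had 1 array and the labels carry no replicate numbers. For the same reason no array could be left out of a group. All HSP90 probes were well above background, so signal over background did not limit their values.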
